A study of Mus musculus with 4 samples.

Results

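The cytosolic ribosomal protein genes were described on 4 Affymetrix mouse arrays of heart RNA. A gene was taken when a probe set carried its symbol alone and the symbol began with Rpl or Rps and a number, or was Rpsa, Rplp0, Rplp1 or Rplp2. Pseudogenes and the Rps6k kinases were left out. This gave 50 genes with 106 probe sets, out of 18193 genes on the array, and the probe set with the highest mean over the 4 arrays represented each gene. Another 31 symbols of the family, among them Rpl3, Rpl5, Rplp1 and Rps23, appeared only on probe sets that list several symbols and were not members. Rps19bp1, which encodes a nucleolar protein that binds Rps19 and is also known as a SIRT1 regulator, met the symbol rule although it is not a ribosomal subunit.

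Per the labels, 2 arrays, NTg-1 and NTg-2, came from wild type mice, and 2, Tg-Sirt1-1 and Tg-Sirt1-2, from mice that carried a Sirt1 transgene. All were killed with pentobarbital and their hearts were snap frozen. The sources used here do not name the promoter of the transgene, the line, the strain, the age or the sex. The arrays NTg-1 and Tg-Sirt1-1 were near-identical although they carry opposite labels, and whether they stem from separate mice cannot be told from these values. Each n = 2 below counts arrays as labelled, and the values of the family and of Rps4l and Rpl27a are also given with these arrays counted once, and arrays are called by their names. Over the 50 members the differences between them had an SD of 0.0512 log2 units and reached at most 0.27, against SDs of 0.234 to 0.519 in the other 5 pairs of arrays. Cardiomyocyte markers such as Myh6 and Tnnt2 read 12.24 to 14.15 on the 4 arrays, among the brightest values. The Sirt1 probe set read 7.30 on NTg-1, 7.17 on NTg-2, 7.16 on Tg-Sirt1-1 and 7.93 on Tg-Sirt1-2, so the array labelled Tg-Sirt1-1 was not above the NTg arrays.

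The cytosolic ribosome is built from a small subunit, whose proteins are named Rps, and a large subunit, whose proteins are named Rpl, each around ribosomal RNA. Rplp0 and Rplp2 belong to the stalk of the large subunit, which recruits elongation factors, and Rpsa is a small subunit protein also described as a laminin receptor. Their mRNAs are among the most abundant of most cells and are known for a pyrimidine-rich start, the 5' terminal oligopyrimidine or TOP element, through which mTORC1 and LARP1 control their translation. A few members have paralogs with narrower expression, of which Rpl3l, a paralog of Rpl3 in heart and skeletal muscle, is the best known.

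A pyrimidine-rich start is the sequence feature that many members shared and that the symbol rule did not use. Promoter entries of RefSeq (GRCm38.p6) matched 44 of the 50 members by gene identifier. The 20 bases around each annotated start, 10 on either side, were searched on the transcript's strand for a run of at least 6 consecutive pyrimidines, C or T. Such a run was present at 23 of 52 start windows of members (44.2%) and at 6631 of 32851 start windows of all genes (20.2%). By gene, 23 of 44 members (52.3%) and 23% of 27025 genes had one at any annotated start. A match describes these letters only. An annotated start can also lie beside the start used in heart. The windows below hold 15 bases on either side of the start. Capitals mark only the part of a run that lies inside the 20 bases searched, so a run can go on in lower case, as it does at Rpl7a, Rpl35 and Rpl27a, and its full length was not measured. The windows are shown for some bright and dim members whose values are given later, all of them with a run. The muscle paralog Rpl3l and the X-linked Rps4x, shown last, had no run. Without a run were 21 of the 44 matched members, among them Rplp0, Rpsa and Rpl41, whose values are also given later.
Rps9: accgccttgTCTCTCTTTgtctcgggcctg
Rpl7a: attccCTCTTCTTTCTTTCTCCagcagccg
Rps10: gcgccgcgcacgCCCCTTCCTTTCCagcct
Rplp2: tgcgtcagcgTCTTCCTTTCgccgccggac
Rpl35: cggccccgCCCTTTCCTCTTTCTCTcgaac
Rpl14: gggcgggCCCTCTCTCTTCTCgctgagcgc
Rpl27a: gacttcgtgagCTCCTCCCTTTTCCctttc
Rpl3l: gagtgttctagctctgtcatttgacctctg
Rps4x: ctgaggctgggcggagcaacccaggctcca
In GRCm38.p6 these windows lie at chr7:3704026-3704055 (Rps9), chr2:26910792-26910821 (Rpl7a), chr7:141447636-141447665 (Rplp2), chr9:120571502-120571531 (Rpl14), chr7:109519180-109519209 (Rpl27a) and chr17:24727811-24727840 (Rpl3l, the first of its annotated starts), all on the plus strand. Those on the minus strand lie at chr17:27635230-27635259 (Rps10), chr2:39005117-39005146 (Rpl35) and chrX:102189377-102189406 (Rps4x). The median difference of NTg-2 from NTg-1 was -0.18 log2 units in the 23 genes with a run and -0.27 in the 21 without, and NTg-2 was lowest in 19 and 14 of them. Among bright genes it was lowest in 16 of 17 with a run and 12 of 15 without. On the whole array NTg-2 was lowest in 37.9% of all genes and in 69.8% of those with a mean of at least 10. A difference between genes with and without a run was not tested.

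Most members were bright and lay close together on the arrays. The representative had a mean log2 value of at least 10 in 37 genes, between 8 and 10 in 3 genes and below 8 in 10 genes. Rps29 read 13.57 on NTg-1, 13.45 on NTg-2, 13.56 on Tg-Sirt1-1 and 13.62 on Tg-Sirt1-2. Rpl41 read 13.08, 12.98, 13.07 and 13.25 on the same arrays, in that order, and Rpl4 read 13.01, 12.74, 13.02 and 12.99. These were the brightest representatives with Rplp2. At the other end Rps16 read 3.96, 3.78, 3.69 and 3.78. Rps16 is a core small subunit protein, but its only probe set with a single symbol was this dim one. Brightness depends on the probes as well as on the RNA, so a dim probe set does not mean a scarce transcript, and levels were not compared between genes. Detection calls were not used here.

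**Figure D1:**
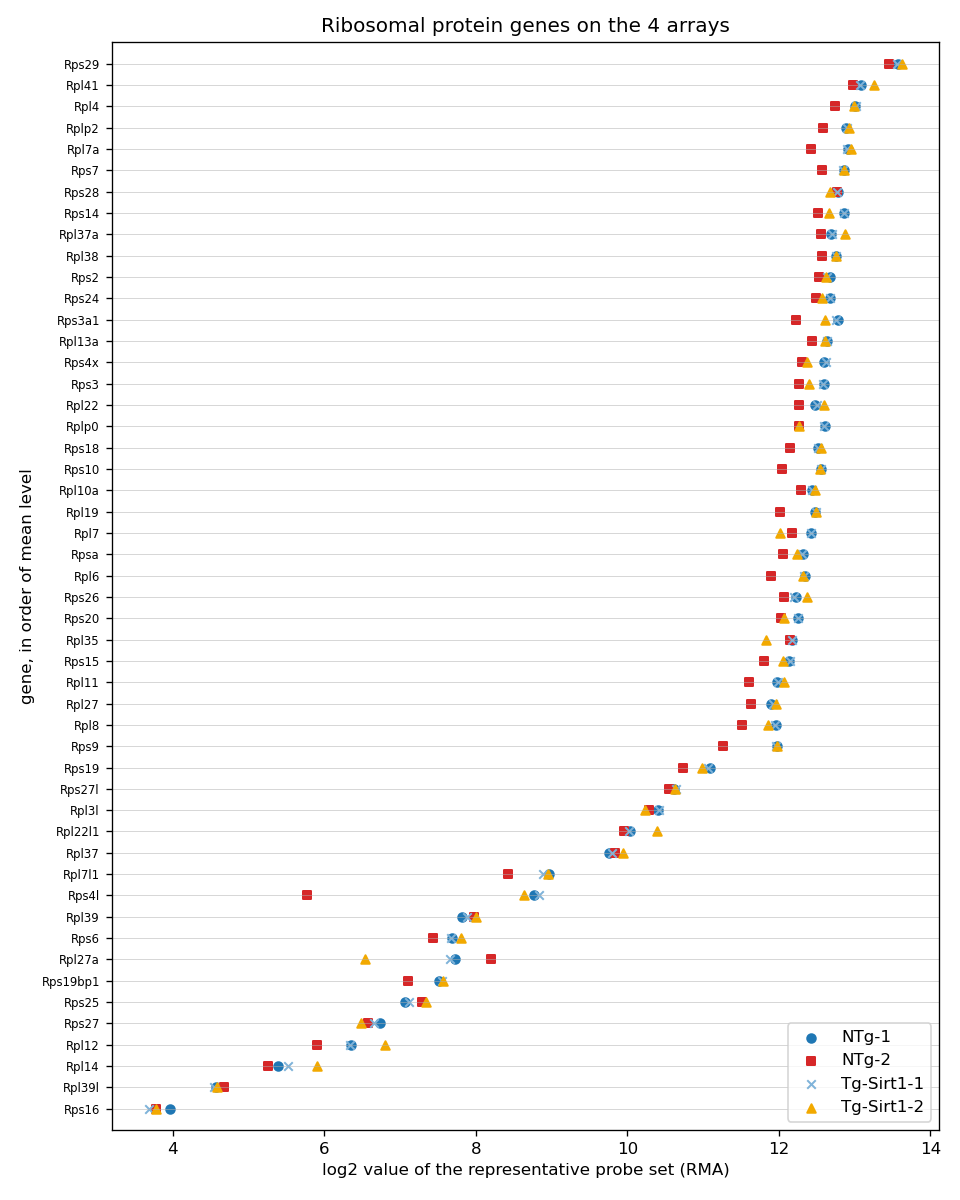
Each row is 1 of the 50 ribosomal protein genes, in order of mean level, and each symbol is the log2 value of its representative probe set on 1 array. NTg-2 lies to the left of the other arrays in most bright genes, Rps4l stands apart on NTg-2 and Rpl27a on Tg-Sirt1-2.

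No ribosomal protein gene passed the test between the labels. The members of lowest unadjusted p were Rpl14 (0.0806), Rpl27a (0.0841) and Rpl12 (0.119), all from dim probe sets. In limma, an adjusted p under 0.05 was reached by 0 of the 50 members and 0% of 45037 probe sets, and 0 members against 28 probe sets (0.0622%) had an unadjusted p under 0.05. All members had an adjusted p of 0.996. With near-identical arrays under opposite labels the fit has little power, so a lack of calls leaves the size of any difference unknown. The Tg-Sirt1 mean was higher in 41 of 50 members, with a median log2 fold change of 0.125, against 53.1% and 0.015 over all 18193 genes. Among all 1872 genes whose representative averaged at least 10, the bright genes, 76.1% had a higher Tg-Sirt1 mean and the median was 0.12, next to 32 of 37 and 0.13 in bright members. Both Tg-Sirt1 arrays lay above both NTg arrays in 9 members (11.4% of all genes, 16.6% of bright genes) and below them in 2 members, Rpl27a and Rps28 (9.3% and 3.1%). In the 9 members Tg-Sirt1-1 lay above the near-identical NTg-1 by only 0.01 to 0.04, or by 0.13 in Rpl14. Rps28 differed by little, at 12.78 on NTg-1, 12.77 on NTg-2, 12.76 on Tg-Sirt1-1 and 12.67 on Tg-Sirt1-2.

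The higher Tg-Sirt1 mean of the family rested on NTg-2. Without NTg-2 the median log2 fold change was -0.005, and 21 members had a higher and 27 a lower Tg-Sirt1 mean. With NTg-1 and Tg-Sirt1-1 averaged and counted once, the median was 0.114 with 36 members higher when the pair was taken as NTg, and 0.225 with 44 higher when it was taken as Tg-Sirt1. Again 0 members passed in limma (lowest adjusted p of a member 0.595 and 0.508).

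NTg-2 gave the lowest value of the 4 arrays in 38 of 50 members, against 37.9% of all genes and 69.8% of bright genes. It was the highest in only 2 members, Rpl27a and Rpl39l (34.3% of all genes, 10.8% of bright genes). The median difference of NTg-2 from NTg-1 was -0.255 log2 units in the members. It was -0.01 in all genes and -0.24 in bright genes. Tg-Sirt1-2, by contrast, had a median difference of -0.005 from NTg-1 in the members, and it was the lowest in 6 and the highest in 20 of them (23.2% and 35.8% of all genes, 17.3% and 44.7% of bright genes). A low value on NTg-2 was thus shared with most bright genes of this array, whose upper quartile over all probe sets was 7.69 against 7.78 to 7.83 on the other arrays. At means of at least 12, NTg-2 was lowest in 25 of 29 members and in 55.6% of 259 other genes, with median differences from NTg-1 of -0.27 and -0.13. This last contrast is a description, and a difference between members and other genes was not tested.

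The scale of the arrays mattered for these counts. After a second quantile normalization, which gives the 4 arrays the same distribution, NTg-2 was lowest in 26 of 50 members (33.2% of all genes) and in 20 of 37 bright members (41.2% of bright genes). The median difference from NTg-1 became -0.12 in members, -0.09 in bright members and -0.02 in all bright genes. The Tg-Sirt1 mean was then higher in 33 members and lower in 17, with a median log2 fold change of 0.06, next to 41 and 9 on the deposited scale.

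**Figure D2:**
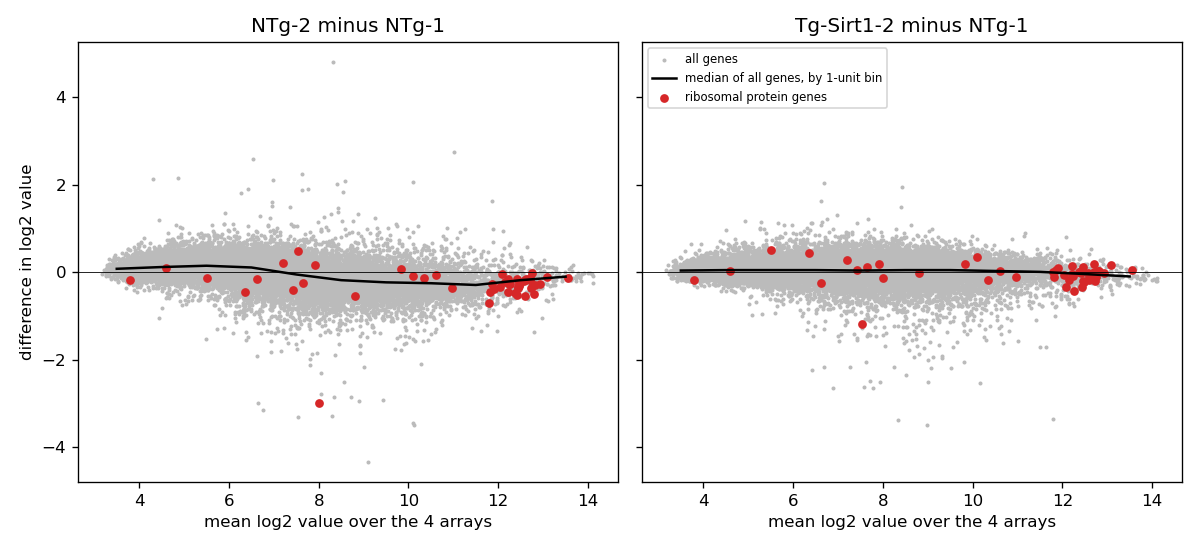
The difference in log2 value from NTg-1 is plotted against the mean log2 value for NTg-2 (left) and Tg-Sirt1-2 (right), with all 18193 genes in grey, their median per bin of 1 log2 unit as a black line and the ribosomal protein genes in red. On NTg-2 the line dips below 0 for bright genes and most members lie with it or below, while on Tg-Sirt1-2 the members lie around 0.

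Other measures moved with NTg-2 and Tg-Sirt1-2. All 5 fibroblast markers had their lowest value on NTg-2, with a median of 9.31 there against 10.51 on NTg-1, 10.5 on Tg-Sirt1-1 and 9.97 on Tg-Sirt1-2. Both neutrophil markers measured, S100a8 and S100a9, were highest there, with a median of 7.85 against 6.015 to 6.435 on the other arrays. All 4 endothelial markers had their lowest value on Tg-Sirt1-2. The gap was clear in Pecam1 (7.79, against 8.07 to 8.66 elsewhere) and Kdr (10.36, against 10.68 to 11.18). It was small in the other 2, as Cdh5 read 8.94 there and 8.96 on Tg-Sirt1-1, and Tie1 8.04 there and 8.09 on NTg-2. Pecam1 (8.07 against 8.62), Kdr (10.68 against 11.17) and Tie1 (8.09 against 8.38) were also lower on NTg-2 than on NTg-1. Cdh5 was not. Of 4 macrophage markers, 2 were lowest on NTg-2 and 1, C1qa, on Tg-Sirt1-2 (8.18, against 8.88 to 9.30). Csf1r (11.19, against 10.66 to 11.00) and Adgre1 (8.30, against 8.18 to 8.28) were highest on Tg-Sirt1-2. Cd68 read 7.37 there and 7.40 on NTg-1. Cardiomyocyte markers had medians of 13.745 to 13.87 on the 4 arrays. The signal of 3' over 5' control probe sets was largest on Tg-Sirt1-2, at 1.92 log2 units for Actb and 1.34 for Gapdh. NTg-2 came next, at 1.44 and 0.69. NTg-1 had 1.22 and 0.18, and Tg-Sirt1-1 had 1.25 and 0.19. The part of these values in the ribosomal protein values was not tested. In whole hearts, fewer cells of a type and less RNA per cell cannot be told apart.

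By the representative probe set, most bright large subunit genes were lowest on NTg-2, as most bright genes of the array were. Of the 17 bright Rpl genes without the stalk, 14 had their lowest value there, next to 69.8% of all bright genes. The difference from NTg-1 ran from -0.49 to -0.03. Rpl7a read 12.91 on NTg-1, 12.42 on NTg-2, 12.90 on Tg-Sirt1-1 and 12.95 on Tg-Sirt1-2. NTg-2 alone was low. The log2 fold change was 0.26 ± 0.20 (standard error), and 0.015 without NTg-2. The other bright Rpl genes with the largest differences of NTg-2, named after their values were seen, were Rpl19, Rpl6 and Rpl8. Rpl19 read 12.48 on NTg-1, 12.01 on NTg-2 and 12.49 on both Tg-Sirt1 arrays. Rpl6 read 12.35, 11.89, 12.33 and 12.32 and Rpl8 read 11.96, 11.51, 11.95 and 11.86 on NTg-1, NTg-2, Tg-Sirt1-1 and Tg-Sirt1-2. In all 3 genes NTg-2 was lowest and the Tg-Sirt1 arrays lay near NTg-1. Rpl37a and Rpl41 were lowest on NTg-2 too, by less, and highest on Tg-Sirt1-2, where Rpl37a read 12.87 against 12.56 to 12.70 elsewhere. Rpl22, which has a T-cell role besides its place in the ribosome, read 12.48, 12.26, 12.50 and 12.59 in the same order of arrays. The exceptions were Rpl35, Rpl7 and Rpl3l, which were lowest on Tg-Sirt1-2. Rpl35, near the exit tunnel of the large subunit, read 12.17 on NTg-1, 12.14 on NTg-2 and 12.17 on Tg-Sirt1-1 but 11.83 on Tg-Sirt1-2, a log2 fold change of -0.155 ± 0.16 (standard error). Rpl7 read 12.43, 12.17, 12.43 and 12.01. Of its other bright probe sets, one read 11.83, 11.50, 11.82 and 11.46, lowest on Tg-Sirt1-2. The other read 11.14, 10.85, 11.16 and 11.09, lowest on NTg-2, so the place of Rpl7 among the exceptions depended on the probe set.

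By the representative probe set, nearly all bright small subunit genes were lowest on NTg-2, an array on which 69.8% of all bright genes were lowest. Of 18 bright Rps genes, 17 had their lowest value on NTg-2 and the exception was Rps28. The difference from NTg-1 ran from -0.71 to -0.01. Rps9, whose yeast counterpart bears on decoding accuracy, had the largest of these differences. It read 11.97 on NTg-1, 11.26 on NTg-2, 11.96 on Tg-Sirt1-1 and 11.98 on Tg-Sirt1-2, so that only NTg-2 was low. Its log2 fold change, 0.355 (95% interval -0.30 to 1.01), was 0 without NTg-2. Rps14, which is known from a form of myelodysplastic syndrome, and Rps19, the gene most often mutated in Diamond-Blackfan anaemia, were low on NTg-2 as well. Rps14 read 12.86, 12.51, 12.86 and 12.66 and Rps19 read 11.09, 10.73, 11.07 and 10.99 on NTg-1, NTg-2, Tg-Sirt1-1 and Tg-Sirt1-2. On Tg-Sirt1-2 both lay between NTg-2 and NTg-1. The other bright probe set of Rps14 read 12.35, 12.20, 12.36 and 12.07 in the same order, lowest on Tg-Sirt1-2. Of the 31 bright probe sets of Rpl and Rps members besides the representatives, 15 were lowest on NTg-2 and 16 on Tg-Sirt1-2. Among the bright Rps genes, looked up after their values were seen, Rps3a1 differed from NTg-1 by -0.55 on NTg-2 and by -0.17 on Tg-Sirt1-2, and Rps10 by -0.51 and -0.01.

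The stalk genes and Rpsa differed from NTg-1 on NTg-2 by -0.34 (Rplp0), -0.30 (Rplp2) and -0.27 (Rpsa). Rplp0, a common reference gene in quantitative PCR, read 12.61 on NTg-1 and 12.60 on Tg-Sirt1-1 and 12.27 on both NTg-2 and Tg-Sirt1-2, with a log2 fold change of -0.005 ± 0.19 (standard error). Both labels thus held a high and a low value. Rplp2 read 12.88, 12.58, 12.90 and 12.92 on NTg-1, NTg-2, Tg-Sirt1-1 and Tg-Sirt1-2, low on NTg-2 only. Rpsa read 12.32, 12.05, 12.31 and 12.24 in that order.

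The paralog Rps4l gave the largest difference of the family, and it lay between the wild type arrays. Rps4l is a paralog of the X-linked Rps4x. It read 8.77 on NTg-1, 5.77 on NTg-2, 8.83 on Tg-Sirt1-1 and 8.64 on Tg-Sirt1-2. NTg-2 lay 2.87 log2 units below the lowest of the other arrays, which were close together. The NTg mean was 7.27 ± 2.12 (SD, n = 2) and the Tg-Sirt1 mean 8.74 ± 0.13 (SD, n = 2). The log2 fold change was 1.465 (95% interval -0.96 to 3.89, adjusted limma p 0.996). Without NTg-2 it was -0.035 and without NTg-1 2.965. With the near-identical arrays counted once it was 1.355 as NTg and 2.95 as Tg-Sirt1. Only 1 probe set carried its symbol, so no other probe set could be set beside it.

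Few genes of any kind showed a gap of this size on NTg-2. In 16 of 18193 genes (0.0879%) NTg-2 lay over 2 log2 units below each other array, and Rps4l was the ninth of them by size and the only member. Among the others, named after their values were seen, were Tnnt1, the slow skeletal troponin T (7.43 on NTg-2, 10.92 to 11.16 elsewhere), Tubb2b, a tubulin gene (4.29, 7.23 to 7.81), and Thbs4, a matricellular protein gene (8.72, 10.76 to 10.81). The next largest gap of a member on NTg-2 was 0.70. Rps4x, the parent gene, read 12.60, 12.30, 12.62 and 12.37 on NTg-1, NTg-2, Tg-Sirt1-1 and Tg-Sirt1-2, and its gap on NTg-2 was 0.07.

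The other paralogs did not share this gap. Rpl3l read 10.41 on NTg-1, 10.29 on NTg-2, 10.42 on Tg-Sirt1-1 and 10.23 on Tg-Sirt1-2, a log2 fold change of -0.025 (95% interval -0.39 to 0.34), and its values overlapped between the labels. Its sign turned to 0.01 after centring the arrays on their medians. Rpl22l1, the paralog of Rpl22, read 10.03, 9.95, 10.02 and 10.39, highest on Tg-Sirt1-2. Rps27l, known as a p53 target, read 10.61, 10.55, 10.64 and 10.63. Rpl7l1, which acts in large subunit assembly, read 8.97, 8.43, 8.89 and 8.95. Rpl39l, best known from the male germline, read 4.57, 4.67, 4.54 and 4.59, below the median of 6.22 to 6.30 of all probe sets on each array. Its parent Rpl39 read 7.82, 7.98, 7.88 and 8, and the single-symbol probe set of Rps27 read 6.74, 6.58, 6.66 and 6.49.

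**Figure D3:**
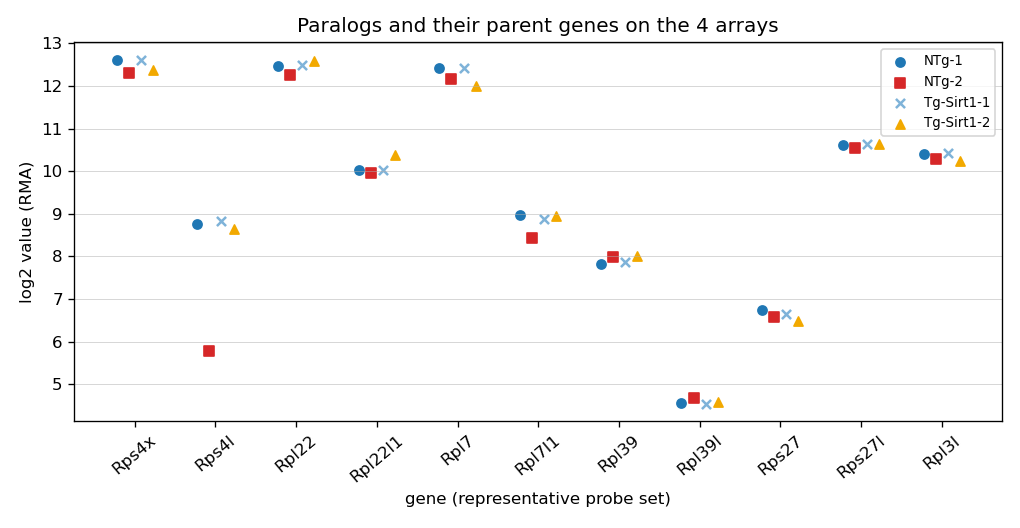
The log2 value of the representative probe set is shown on each of the 4 arrays for 5 parent genes, their paralogs and Rpl3l. Rps4l reads 5.77 on NTg-2 and 8.64 to 8.83 elsewhere, and the other genes shown vary by at most 0.54 between arrays.

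The dim members gave mixed values on NTg-2. In the 10 members with a mean below 8, NTg-2 was lowest in 4 and highest in 2 (24% and 46.1% of all such genes), and the median log2 fold change was 0.045. Rpl12 read 6.35 on NTg-1, 5.91 on NTg-2, 6.34 on Tg-Sirt1-1 and 6.80 on Tg-Sirt1-2, a log2 fold change of 0.44 ± 0.24 (standard error), in which NTg-2 was lowest and Tg-Sirt1-2 highest. Rpl14 read 5.39, 5.26, 5.52 and 5.90, with no overlap between the labels. Rps6, the substrate of the S6 kinases, read 7.69, 7.44, 7.67 and 7.81, and Rps25 read 7.07, 7.29, 7.12 and 7.34. Rps25 was thus higher on both second arrays than on NTg-1 and Tg-Sirt1-1. Rps19bp1 read 7.51, 7.11, 7.55 and 7.57, low on NTg-2 only, and its log2 fold change of 0.25 became 0.05 without NTg-2. Near the limits of brightness, Rpl22l1 (mean 10.1) lay just inside the bright class and Rpl37 (9.84) just outside, and Rps4l (8.0025) and Rpl39 (7.92) lay on either side of the lower limit.

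Rpl27a, a large subunit protein, was the member with the largest negative value. Its representative read 7.72 on NTg-1, 8.20 on NTg-2, 7.66 on Tg-Sirt1-1 and 6.54 on Tg-Sirt1-2. Tg-Sirt1-2 lay 1.12 log2 units below the lowest other array, a gap over 1 that 54 of all genes (0.297%) had on this array and no other member. The log2 fold change was -0.86 (95% interval -1.89 to 0.17). It was -0.30 without Tg-Sirt1-2, and with the near-identical arrays counted once it was -1.405 as NTg and -1.085 as Tg-Sirt1. Its other probe set, also dim, read 5.55, 5.94, 5.52 and 5.52 in the same order of arrays, highest on NTg-2 but not low on Tg-Sirt1-2. The 3' minus 5' control signals were largest on Tg-Sirt1-2, as given above, and their part was not tested.

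Probe sets of the same gene did not always agree. In 24 members with several probe sets there were 56 besides the representatives, and 22 of these had a log2 fold change that did not share the sign of the representative, 11 of them bright. Some of these values lay near 0, such as -0.015 and -0.01 in Rps10 and 0.005 in Rpl35. Others did not, such as -0.15 in Rps7, whose representative had 0.14. A share over other genes with several probe sets was not computed. Among the 31 bright probe sets besides the representatives NTg-2 was lowest in 15 and Tg-Sirt1-2 in 16 (66.1% and 20.9% of all probe sets with a mean of at least 10), and their median log2 fold change was 0.005. The bright Rps9 probe set differed by -0.71 log2 units on NTg-2 from NTg-1, but its 2 dim ones by 0.01 and 0.11. Rps10, chosen after its values were seen, had 6 probe sets. The brightest read 12.55 on NTg-1 and 12.04 on NTg-2, and one nearly as bright read 12.54 and 12.23, with 12.29 on Tg-Sirt1-2 against 12.54 in the first. The bright Rpl35 probe sets other than its representative were higher on NTg-2 than on NTg-1 in 3 of 4 cases, at 11.83 against 11.49 in one of them. Bright probe sets whose names end in _x_at, which by design may cross-hybridise with other transcripts, had a median NTg-2 difference of -0.15 in 34 probe sets. Those ending in _a_at, which match variants of 1 gene, had -0.30 in 25. The family's median log2 fold change was 0.125 with the brightest probe sets and 0.0837 with all probe sets of a gene averaged. It was 0.14 over 45 members when _x_at and _s_at probe sets were not used as representatives. The part of the probe set choice was not tested.

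**Figure D4:**
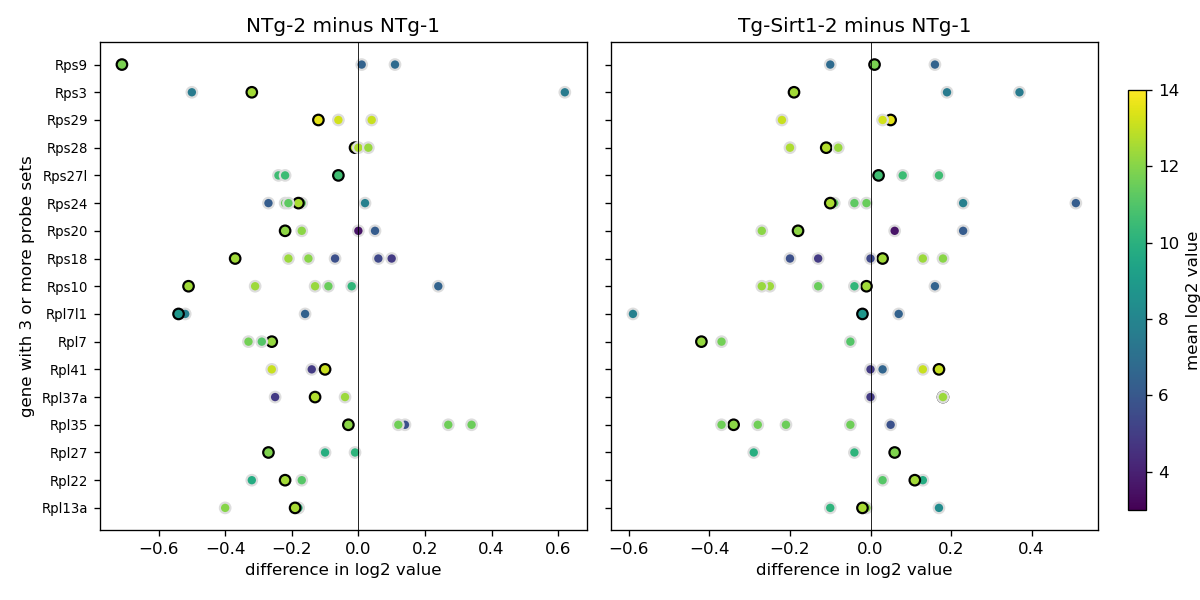
For the members with 3 or more probe sets, each circle is 1 probe set at its difference in log2 value from NTg-1 on NTg-2 (left) or Tg-Sirt1-2 (right), coloured by mean log2 value, with the representative outlined in black. The bright Rps9 probe set lies at -0.71 on NTg-2 while its dim ones lie at 0.01 and 0.11, and those of Rps10 and Rpl35 spread as well.

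The 110 probe sets that list several symbols, 1 of them a ribosomal protein, were not members. Their median difference of NTg-2 from NTg-1 was -0.18, and -0.23 in the 81 bright ones, where NTg-2 was lowest in 56, next to 66.1% of all bright probe sets. Over all 110 it was lowest in 62.

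Other genes of translation were read beside the members. None passed the test. The mitochondrial ribosomal proteins, which serve the ribosome of that organelle, had a median log2 fold change of 0.125 with 64 of 76 higher in Tg-Sirt1. NTg-2 was lowest in 60 of them (37.9% of all genes, 60.9% of genes with a mean between 8 and 10, 69.8% of bright genes). Of the 76, 35 were bright. Mrpl45 and Mrpl47 had the largest log2 fold changes of the list in size. Mrpl45 read 9.60 on NTg-1, 8.97 on NTg-2, 9.59 on Tg-Sirt1-1 and 8.01 on Tg-Sirt1-2, a log2 fold change of -0.485 that was 0.305 without Tg-Sirt1-2. Mrpl47 read 9.90, 9.32, 9.89 and 10.06, a log2 fold change of 0.365 that was 0.075 without NTg-2. Translation factors and other genes with TOP transcripts had a median of 0.12 with 12 of 15 higher. Among them the elongation factor gene Eef1a1 read 13.27 on NTg-1, 12.23 on NTg-2, 13.30 on Tg-Sirt1-1 and 13.08 on Tg-Sirt1-2. The poly(A)-binding protein gene Pabpc1 read 11.31, 10.48, 11.32 and 11.11. Both were taken for the largest log2 fold changes of the list in size, and both were lowest on NTg-2. Over the list NTg-2 was lowest in 12 of 15 genes (37.9% of all genes, 69.8% of bright genes). The median difference of NTg-2 from NTg-1 was -0.33 in the list, next to -0.255 in the members. Fau, which encodes a small subunit protein outside the symbol rule, read 12.13, 11.81, 12.10 and 12.16.

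Ribosome biogenesis genes had a median log2 fold change of 0.09 with 27 of 37 higher. NTg-2 was lowest in 20 of them (37.9% of all genes, 60.9% of genes with a mean between 8 and 10, 69.8% of bright genes). Only 2 of the 37 were bright. Ncl and Nop58 had the largest log2 fold changes of the list in size. The nucleolin gene Ncl read 10.80 on NTg-1, 10.82 on NTg-2, 10.84 on Tg-Sirt1-1 and 9.71 on Tg-Sirt1-2. The box C/D particle gene Nop58 read 6.92, 6.43, 6.93 and 5.47. Both were low on Tg-Sirt1-2, but over the list this array was lowest in 9 and highest in 18 genes (23.2% and 35.8% of all genes). Genes of the mTORC1 control of translation had a median of -0.075 with 6 of 13 higher. Eif4e and Rps6kb2 had the largest log2 fold changes of this list in size. The cap-binding protein gene Eif4e read 11.26, 10.56, 11.26 and 11.21 on NTg-1, NTg-2, Tg-Sirt1-1 and Tg-Sirt1-2, and its log2 fold change of 0.325 was -0.025 without NTg-2. The S6 kinase gene Rps6kb2 read 7.96, 7.82, 7.84 and 7.39, and its log2 fold change of -0.275 was -0.05 without Tg-Sirt1-2. The counts of higher genes stand beside 53.1% of all genes with a higher Tg-Sirt1 mean. The share was 71.0% of genes with a mean between 8 and 10 and 76.1% of bright genes. No list was tested against another.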

How the data were processed

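Heart RNA was measured on 4 arrays, per the labels from 4 mice, although NTg-1 and Tg-Sirt1-1 were near-identical and may not be separate samples. The deposited log2 values, 1 per probe set and array, were made by the authors with RMA in Affymetrix Expression Console, per the submitters' processing notes. RMA scales the probe intensities of the arrays to one distribution, which hides a shift common to all genes, and it compresses changes of weak probe sets. The deposited probe set values still differed in distribution, with an upper quartile of 7.69 on NTg-2 and 7.78 to 7.83 on the other arrays. Scanner data were not analysed here. Of 45101 probe sets, 64 controls were left out.

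The 45037 others were fitted together in limma 3.58.1 under R 4.3.3 (lmFit, eBayes), with two-sided p-values, Benjamini-Hochberg adjustment over all of them and a threshold of 0.05. The script was tested on simulated data. A log2 fold change is Tg-Sirt1 minus NTg. The labels do not name separate litters or extractions, so p-values measure only the spread between these arrays, whose number limits the precision. For a single gene, an exact permutation test could not give a p below 0.333. Members, lists and the naming rule were chosen with earlier results of these data known. The rule took paralogs and their parents, stalk genes and Rpsa, the 4 brightest and 4 dimmest members, the 6 largest changes in each direction and, per pathway list, the 2 largest. Alternatives covered the block, each array left out, a filter, scaling, an offset, the variance model, the near-identical arrays and the probe set of a gene. The restriction to bright members and the comparisons with bright genes were added after seeing the data.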

Additional observations from a re-analysis of the deposited data

How the results depend on the processing

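In limma, 0 members passed the threshold under each of the 14 alternatives. Leaving out 1 array, with a lone array assumed to vary like the other label, gave 21 to 42 members with a higher Tg-Sirt1 mean, the lowest without NTg-2, and medians of -0.005 to 0.225. Over the same fits, ranges of the log2 fold change that crossed 0 were -0.035 to 2.965 for Rps4l, -0.04 to 0.12 for Rpl39, -0.12 to 0.07 for Rpl3l, -0.29 to 0.13 for Rpl7, -0.175 to 0.165 for Rplp0, -0.005 to 0.265 for Rpl4, -0.05 to 0.49 for Rpl7l1, -0.105 to 0.195 for Rps4x, -0.045 to 0.225 for Rpsa and -0.325 to 0.015 for Rpl35. The second quantile normalization turned Rpl39 (-0.02), Rps27l (-0.0413) and Rps4x (-0.0306). Centring turned Rpl3l (0.01) and Rplp0 (0.03). With the near-identical arrays counted once as NTg, Rps4x was -0.085. Counted once as Tg-Sirt1, Rpl39 was -0.055, Rpl3l 0.0325, Rpl7 0.05, Rplp0 0.1675, Rps16 0.0225 and Rps27 0.015. Averaging the probe sets of each gene gave Rpl7 0.0083 and Rps29 -0.0017, and representatives without _x_at and _s_at probe sets gave Rpl35 0.005. The causes were not tested. With the replicate number as a block the median was 0.125, 41 members were higher and 0 passed. The 2 pairs share only a number. Deviations of same-numbered arrays correlated at r = 0.293 over 45037 probe sets. The near-identical NTg-1 and Tg-Sirt1-1 stand on either side of this correlation, which by itself pulls r above 0. Whether same-numbered arrays belong together cannot be told from it.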
